A study of Mus musculus with 12 samples.

Results

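The genes described here encode the Gq and phospholipase C pathway, and they were chosen by symbol: *Gnaq*, *Gna11*, *Plcb1*, *Plcb3*, *Plcb4*, *Itpr1*, *Prkca*, *Prkcb*, *Rgs2* and *Rgs4*. All 10 of 10 had a row on both diets, among 16438 genes listed on both (16855 on chow and 16744 on a high-fat diet, HFD). The hypothalamus of 12 males was profiled by RNA-Seq. Each genotype, WT or *Gpr75*-/-, gave 3 animals fed chow throughout and 3 that ate the HFD for 2 weeks from 6 weeks of age, and all were 8 weeks old at collection. The null allele was made by CRISPR/Cas9 in C57BL/6J, is carried by every cell and leads to an early stop codon, so *Gpr75* mRNA can still be made.

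In the Gq pathway, a receptor switches on the G protein alpha subunits Gαq and Gα11, which activate phospholipase C beta at the membrane. That enzyme splits a membrane phosphoinositide into inositol trisphosphate, which opens calcium channels of the endoplasmic reticulum, and diacylglycerol, which together with calcium activates protein kinase C. RGS proteins end the signal by speeding the hydrolysis of GTP on the alpha subunit. Hypothalamic neurons use this pathway for many peptide and monoamine receptors, and GPR75 is a receptor tied to Gαq. The question for these data was whether mRNA levels of the pathway differed between *Gpr75*-/- and WT hypothalamus on either diet.

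The values are means that the authors deposited for each genotype and diet, read here as log2 CPM, counts scaled to library size. They carry no value of a single mouse, so no difference between genotypes could be tested, and no SD is given. Each mean was rounded by the authors, which leaves a range around it. For a pathway gene that range was at most 0.06 on the log2 scale to either side of a genotype difference, and differences are called beyond rounding where their range leaves out 0. The columns used do not show the spread between mice, but they limit it. The mean normalized count over the 6 mice of a diet and the mean of their logs drift apart as mice differ, and the distance between the values allowed a largest standard error (SE) of the genotype difference for each gene. It was 0.24 to 0.42 log2 units over the 10 genes on chow and 0.26 to 0.39 on the HFD. This limit is loose: rounding alone, with no spread between mice at all, sets it at 0.23 to 0.30 on chow and 0.23 to 0.31 on the HFD, for each of the 10 genes more than its own difference. The genotype differences of these genes are therefore not set against it, and the actual SE can be far smaller. Counting error alone was 0.016 to 0.061 log2 units on chow and 0.015 to 0.059 on the HFD.

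The depth of an average mouse, as the sum of the mean normalized counts, was 18280462 on chow and 19420111 on the HFD. *Gpr75* mRNA itself was at 4.06 log2 CPM in WT and 4.62 in *Gpr75*-/- mice on chow, and at 4.31 and 4.21 on the HFD, which does not check the genotype labels because the allele can still be transcribed. The hypothalamic markers *Pomc*, *Agrp*, *Hcrt*, *Pmch*, *Avp* and *Oxt* were above 0 in every group, with levels of 1.43 to 7.94 log2 CPM in WT mice on chow and 1.0 to 7.82 on the HFD. Markers of some other cells differed between the genotype means. None of 3 astrocyte and none of 3 endothelial markers lay 1.1-fold or more from WT on either diet, and of 3 microglia markers 1 was lower on chow and 0 on the HFD. The 4 oligodendrocyte markers summed to 8868 CPM in WT and 7373 CPM in *Gpr75*-/- mice on chow, with 3 of 4 lower by 1.1-fold or more. On the HFD they summed to 9189 and 7824 CPM, with 4 of 4 lower. The 4 neuron markers lay within 1.1-fold on both diets, at sums of 3955 and 3820 CPM on chow and 3687 and 3638 CPM on the HFD. On chow, 4 of 4 choroid plexus markers were higher in *Gpr75*-/- mice, summing to 33.1 CPM against 14.3 CPM in WT. In WT, *Aqp1* was listed at 0 on the log2 scale, the floor of the deposited values (1.0 CPM or less), and was counted as 1.0 CPM. The CPM values and sums come from means of logs, so they are not mean CPM. *Ttr* had a mean of 2910 normalized counts over the 6 mice on chow. Its group levels were 5.59 CPM in WT and 12.9 CPM in *Gpr75*-/- mice. The largest SE was 3.5 log2 units, so single mice can differ widely in *Ttr*. On the HFD 2 of the choroid plexus markers were listed and they went opposite ways: *Ttr* was at 0.375 of WT and *Kl* at 1.12. Of the 6 hypothalamic markers on chow, *Agrp* was higher (0.32) and *Pomc* lower (-0.28) by 1.1-fold or more, with sums of 606 CPM in *Gpr75*-/- and 578 CPM in WT mice. On the HFD, 5 of 6 hypothalamic markers were higher in *Gpr75*-/- mice by 1.1-fold or more, and the 6 summed to 714 CPM against 582 CPM in WT. The part of these shifts in the values below was not tested, and in tissue RNA fewer cells of a type and less RNA per cell cannot be told apart.

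**Figure D1:**
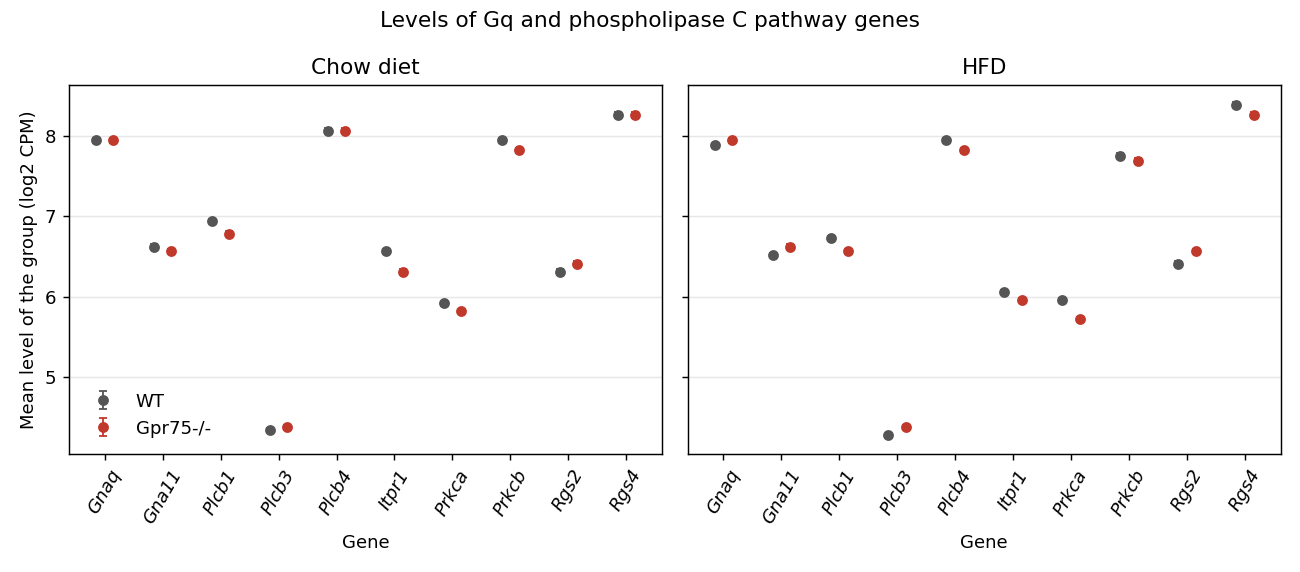
Mean level of each gene (log2 CPM) in WT (grey) and *Gpr75*-/- (red) mice on chow (left) and the HFD (right). Each point is the mean of a group of 3 mice, and bars, mostly hidden by the points, are the range left by rounding. *Rgs4* was the highest and *Plcb3* the lowest in all 4 groups.

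The genotype differences of the 10 genes lay between -0.26 and 0.16 log2 units on both diets. In *Gpr75*-/- mice on chow, *Itpr1* and *Plcb1* were lower by 1.1-fold or more and none was higher. On the HFD, *Prkca* and *Plcb1* were lower and *Rgs2* was higher by that measure. That is 2 of 10 lower and 0 higher on chow, where 15.2% of the 16851 genes with a mean of at least 10 normalized counts were lower and 15.8% higher by 1.1-fold or more. It is 2 of 10 lower and 1 higher on the HFD, where 11.7% of 16741 genes were lower and 14.8% higher. Among genes with a mean of at least 100, as all 10 have, 10.7% were lower and 10.1% higher on chow, and 7.57% and 9.31% on the HFD. At 2 genes of 10, each count is too small to set apart from these shares. The fold of 1.1 was chosen after the values were seen.

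The alpha subunits act first in the pathway, and their genes showed small differences. *Gnaq*, which encodes Gαq (ENSMUSG00000024639, chromosome 19, 16110195 to 16364827), was at 7.94 log2 CPM in both WT and *Gpr75*-/- mice on chow, and at 7.88 in WT and 7.94 in *Gpr75*-/- mice on the HFD. The difference of *Gpr75*-/- from WT was 0.00 on chow (range left by rounding -0.06 to 0.06) and 0.06 on the HFD (0.00 to 0.12). Neither was beyond rounding, which bounds the fold between the group means at 0.958 to 1.04 on chow and 1.0 to 1.09 on the HFD. *Gna11*, which encodes the closely related Gα11 (ENSMUSG00000034781, chromosome 10, 81364558 to 81381024), was at 6.62 log2 CPM in WT and 6.57 in *Gpr75*-/- mice on chow. On the HFD it was at 6.52 in WT and 6.62 in *Gpr75*-/- mice. The *Gna11* difference was beyond rounding on the HFD (0.10, 0.05 to 0.16) and not on chow (-0.05, -0.11 to 0.00).

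The phospholipase C beta genes did not move as a group. *Plcb1* (ENSMUSG00000051177, chromosome 2, 134627987 to 135317178) encodes an isoform that is strongly activated by Gαq. Its level was 6.94 log2 CPM in WT and 6.78 in *Gpr75*-/- mice on chow, and 6.73 in WT and 6.57 in *Gpr75*-/- mice on the HFD. The WT group was the higher on both diets. *Plcb1* was thus at 0.893 of the WT level on chow (0.860 to 0.927 from rounding) and at 0.896 on the HFD (0.863 to 0.929). *Plcb4* (ENSMUSG00000039943, chromosome 2, 135500931 to 135856513), another Gαq-activated isoform, was at 8.06 log2 CPM in both genotypes on chow. On the HFD it was at 7.94 in WT and 7.82 in *Gpr75*-/- mice, a difference of -0.12 (-0.18 to -0.06). *Plcb3* (ENSMUSG00000024960, chromosome 19, 6929693 to 6953838), whose protein also responds to the beta and gamma subunits of G proteins, had the fewest counts of the 10, with means of 378.5 and 392.8 normalized counts. It was at 4.35 log2 CPM in WT and 4.39 in *Gpr75*-/- mice on chow, and at 4.28 and 4.39 on the HFD. The *Plcb3* difference of 0.11 on the HFD (0.07 to 0.15) had the opposite sign to those of *Plcb1* and *Plcb4*, and its counting error was 0.059.

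*Itpr1* had the widest genotype gap of the 10 genes on chow. It encodes the main inositol trisphosphate receptor of neurons, the channel through which calcium leaves the endoplasmic reticulum (ENSMUSG00000030102, chromosome 6, 108190057 to 108528070). On chow it was at 6.57 log2 CPM in WT and 6.31 in *Gpr75*-/- mice, or 94.9 and 79.4 CPM, so that the *Gpr75*-/- mean was at 0.836 of WT (0.807 to 0.867 from rounding). On the HFD it was at 6.06 and 5.96 log2 CPM, with a ratio of 0.935 (0.904 to 0.967). The log2 difference was -0.26 (-0.31 to -0.21) on chow and -0.10 (-0.15 to -0.05) on the HFD.

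Of the protein kinase C genes, *Prkca* was lower in the *Gpr75*-/- means beyond rounding on both diets and *Prkcb* on chow. *Prkca* (ENSMUSG00000050965, chromosome 11, 107824213 to 108234754) encodes the alpha isoform, a kinase activated by calcium and diacylglycerol. It was at 5.92 log2 CPM in WT and 5.82 in *Gpr75*-/- mice on chow, and at 5.96 in WT and 5.73 in *Gpr75*-/- mice on the HFD. The ratio of *Gpr75*-/- to WT was 0.936 on chow (0.906 to 0.968) and 0.848 on the HFD (0.821 to 0.877). The HFD difference of *Prkca*, -0.24, was the largest of the 10 genes on that diet. *Prkcb* (ENSMUSG00000052889, chromosome 7, 121887974 to 122233625), for the beta isoforms, was at 7.94 log2 CPM in WT and 7.82 in *Gpr75*-/- mice on chow, and at 7.75 and 7.69 on the HFD. Its difference was beyond rounding on chow (-0.12, -0.18 to -0.06) and not on the HFD (-0.06, -0.12 to 0.00).

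The RGS genes, whose products limit the signal, went different ways. *Rgs2* (ENSMUSG00000026360, chromosome 1, 143875076 to 143879899) encodes an RGS protein that prefers Gαq and is quickly induced by neuronal activity. It was at 6.31 log2 CPM in WT and 6.41 in *Gpr75*-/- mice on chow, and at 6.41 in WT and 6.57 in *Gpr75*-/- mice on the HFD. The *Rgs2* ratio was 1.07 on chow (1.04 to 1.11) and 1.11 on the HFD (1.07 to 1.15). *Rgs4* (ENSMUSG00000038530, chromosome 1, 169569046 to 169575211), which acts on Gαq and Gαi, was at 8.25 log2 CPM in both genotypes on chow. On the HFD it was at 8.38 in WT and 8.25 in *Gpr75*-/- mice, a difference of -0.13 (-0.19 to -0.06).

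**Figure D2:**
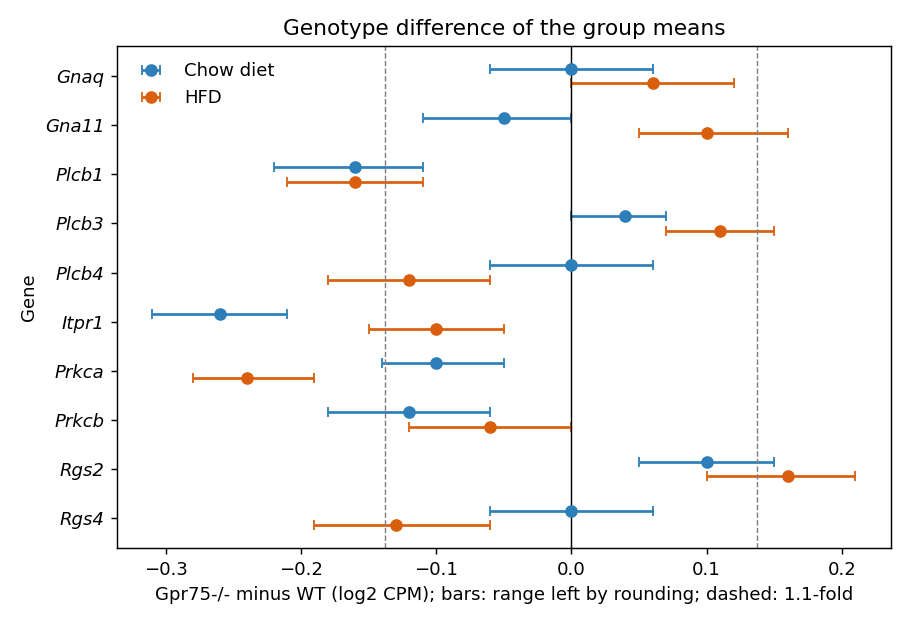
Difference of the group means, *Gpr75*-/- minus WT (log2 CPM), for each gene on chow (blue) and the HFD (orange). Bars are the range left by rounding, not an SE, and dashed lines mark 1.1-fold. *Plcb1*, *Itpr1* and *Prkca* lay below 0 and *Rgs2* above 0 beyond rounding on both diets, while *Prkcb* (below 0) and *Plcb3* (above 0) kept their side but were beyond rounding on 1 diet each.

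Across the diets, 4 of the 10 genes had a difference beyond rounding on both, and all 4 kept its direction. These were *Plcb1*, *Itpr1* and *Prkca*, which were lower in *Gpr75*-/- mice, and *Rgs2*, which was higher. Each diet has its own WT mice. Over the 16438 genes with a mean of at least 10 on both diets, 6875 were beyond rounding on both and 57.3% of these had the same direction, or 24.0% of all of them. On chow, 4 of the 10 genes were lower and 1 higher beyond rounding, where 29.9% of all genes were lower and 32.0% higher. On the HFD, 5 were lower and 3 higher, where 24.9% of all genes were lower and 33.0% higher. The median difference of the 10 genes was -0.03 log2 units on chow and -0.08 on the HFD, against 0.00 for all genes on each diet. From chow to the HFD the genotype difference shifted by 0.16 for *Gna11* and for *Itpr1* (0.05 to 0.26 and 0.06 to 0.26 from rounding). It shifted by -0.14 for *Prkca* (-0.24 to -0.05), -0.13 for *Rgs4* (-0.26 to 0.00) and -0.12 for *Plcb4* (-0.25 to 0.00). These ranges overlap in size, so rounding leaves their order open. These shifts were not tested.

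**Figure D3:**
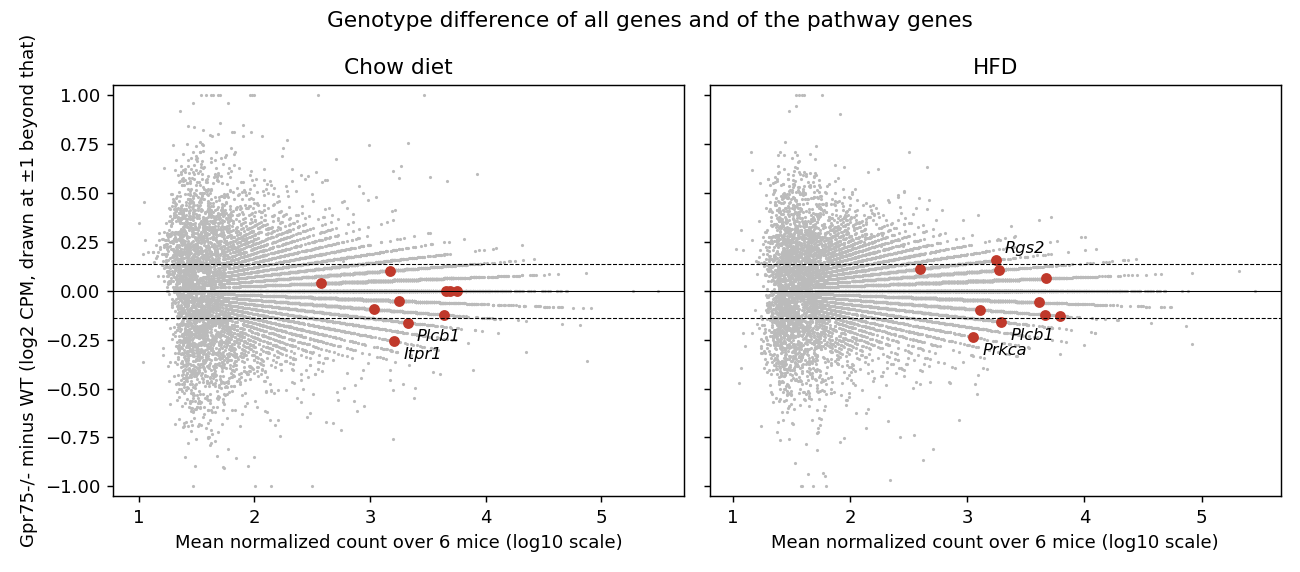
Difference of the group means (*Gpr75*-/- minus WT, log2 CPM) against the mean normalized count over 6 mice (log10 scale) for all genes with a mean of at least 10 (grey) and the 10 pathway genes (red), on chow (left) and the HFD (right). Dashed lines mark 1.1-fold, the fans of grey points come from the rounding, and the named genes lie inside the grey cloud at their level.

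The pathway genes differed far more from each other than between the genotypes. Levels were set against each other per kilobase of the longest protein-coding transcript. In WT mice on chow, *Rgs4* was the highest at 6.70 log2 CPM per kb, above 96.5% of the genes with a length. *Prkcb* followed at 6.40 and *Plcb4* at 5.68. *Gnaq* came next at 5.44, *Gna11* at 4.85, *Rgs2* at 4.72 and *Plcb1* at 4.10. The lowest were *Itpr1* at 3.27, *Prkca* at 2.84 and *Plcb3* at 2.26, above 33.9% of genes. The place of *Itpr1* rests on the transcript length: per kilobase of its median transcript it ranked 1 of 10 on chow, with *Rgs4* at 2, and 2 of 10 on the HFD. An SE for the gap between neighbours was worked out from the largest SE of each gene. It takes WT and *Gpr75*-/- mice as equally spread and the genes as independent. WT mice alone could hold more of the spread, so it is not an upper limit. Gaps were more than 2 times this SE in 4 places: below *Prkcb*, *Gnaq*, *Rgs2* and *Plcb1*. That does not settle whether these neighbours were apart. *Rgs4* and *Prkcb*, *Plcb4* and *Gnaq*, and *Gna11* and *Rgs2* were not apart by that much. Nor were *Itpr1*, *Prkca* and *Plcb3*, each from the next, which does not show that they were alike.

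On the HFD the order in WT mice differed in 2 pairs of neighbours. With the SE of a gap worked out in the same way, gaps passed 2 times their SE in 2 places, below *Gna11* and *Plcb1*. They did not below *Prkcb* (0.65 against an SE of 0.33) or *Gnaq* (0.56 against 0.31). This SE is again not an upper limit. *Rgs4* was at 6.83 log2 CPM per kb, *Prkcb* at 6.21, *Plcb4* at 5.56 and *Gnaq* at 5.38. *Rgs2*, at 4.82, stood above *Gna11*, at 4.74, and *Prkca*, at 2.89, above *Itpr1*, at 2.76. Both pairs lie closer than this SE of their gap on the HFD. *Plcb1* was at 3.88 and *Plcb3* at 2.19. The tables were normalized separately for each diet, so levels are given side by side and not compared between diets. Among the alpha subunits, *Gnaq* stood above *Gna11* in all 4 groups, and *Plcb4* was the highest of the phospholipase C beta genes per length.

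Other genes of the pathway numbered 31 on the list used, of which 29 were listed on each diet. They include further protein kinase C, RGS, phospholipase C and calcium channel genes, calmodulins, diacylglycerol kinases and TRPC channels, which conduct calcium after phospholipase C is active. On chow, 2 of 29 were lower in *Gpr75*-/- mice by 1.1-fold or more and 0 higher, with a median difference of -0.04. The 2 were *Dgkb*, a diacylglycerol kinase gene (-0.22, -0.28 to -0.17), and the channel gene *Trpc5* (-0.27, -0.30 to -0.23), named after their values were seen. On the HFD, 6 of 29 were lower and 1 higher, with a median of -0.05, where 11.7% of all genes were lower and 14.8% higher. On chow these shares were 15.2% and 15.8%. *Gna15*, a Gq family alpha subunit gene of blood cells, was close to the floor of the deposited values on the HFD. There it was at 0.87 log2 CPM in WT and 0.38 in *Gpr75*-/- mice, and it was named after its values were seen. Per length, *Calm2*, a calmodulin gene, was the highest in WT mice at 10.44 log2 CPM per kb on both diets. *Plcb2* was the lowest on chow at -1.55, and *Itpr3* on the HFD at -1.84.

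The protein kinase C family was singled out after its values were seen. Of 6 family genes, *Prkca* and *Prkcb* included, 0 lay 1.1-fold or more from WT on chow, with a median of -0.06, beside 15.2% of all genes lower and 15.8% higher (10.7% and 10.1% with a mean of at least 100). The difference between the diets was not tested. On the HFD 3 of 6, *Prkca*, *Prkcd* and *Prkcq*, were lower by that measure and none higher, with a median of -0.15, beside 11.7% of all genes lower and 7.57% of those with a mean of at least 100. A count in a family picked for its values supports nothing further. *Prkcd*, for a calcium-independent isoform, was at 7.22 log2 CPM in WT and 6.89 in *Gpr75*-/- mice on the HFD, a difference of -0.34 (-0.39 to -0.28). *Prkcq*, for the theta isoform, was at 4.74 in WT and 4.43 in *Gpr75*-/- mice (-0.31, -0.35 to -0.27). Among 8 RGS genes, 0 lay 1.1-fold or more from WT on chow and 1, *Rgs2*, was higher on the HFD, where 14.8% of all genes were higher. Of 3 IP3 receptor genes on the HFD, *Itpr2* was lower (-0.16, -0.19 to -0.12) and *Itpr3* higher (0.44, 0.42 to 0.46), the latter with a mean of 58.3 normalized counts.

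**Figure D4:**
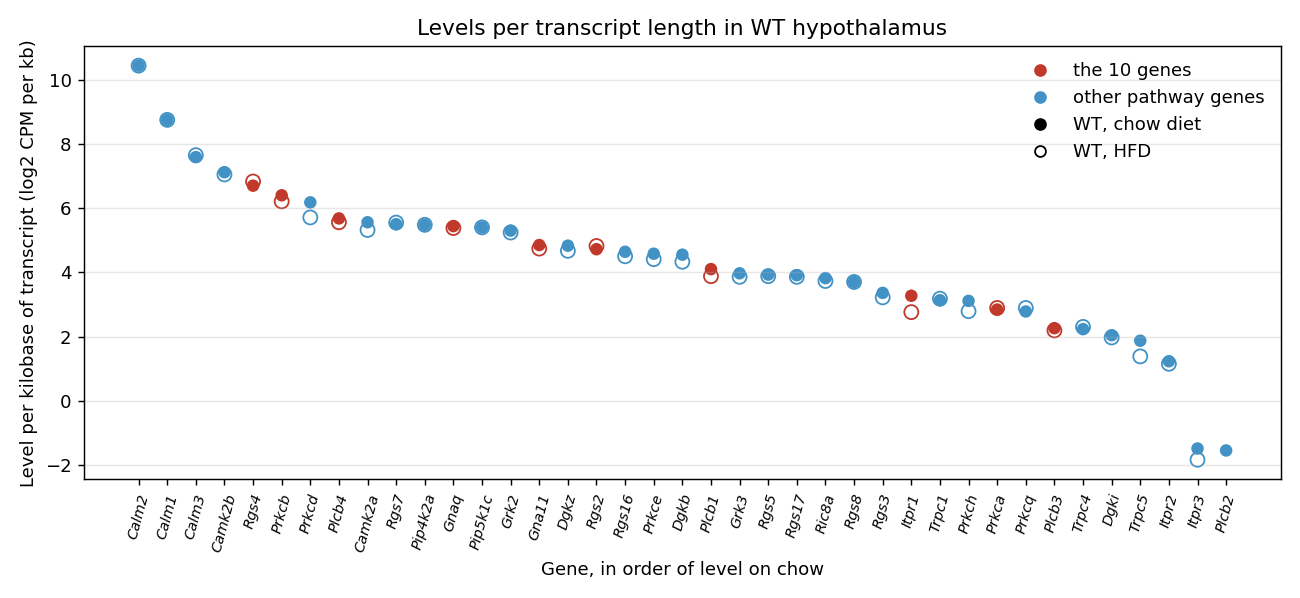
Level per kilobase of the longest protein-coding transcript (log2 CPM per kb) in WT mice on chow (filled) and the HFD (open) for the 10 genes (red) and the other pathway genes listed on chow (blue), in order of the chow level. The 10 genes ran from 6.70 for *Rgs4* to 2.26 for *Plcb3* on chow, between *Calm2* at 10.44 and *Plcb2* at -1.55.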

How the data were processed

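Hypothalamus mRNA of 12 mice was sequenced from SMART-Seq libraries. The submitters' processing notes name STAR, featureCounts, StringTie and DESeq2 with the build GRCm39, on which coordinates are given as deposited. The authors deposited 1 table per diet, with a signal (the mean normalized count over 6 mice) and a log2 mean level per genotype, kept to 2 decimals. The scale of the latter was read from the values as log2 of log2 CPM plus 1, logged before averaging. It followed log2 of the mean normalized CPM with a slope of 1.0, an offset of -0.012 on chow and -0.011 on the HFD, and a residual spread (0.011 and 0.010) near that of rounding (0.0087), over 12413 and 12509 genes. Levels below 1 CPM are listed at 0. Further columns hold the authors' own fold changes, standard errors and p-values and were not used.

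Tests planned on single mice could not be run. Differences of group means carry the range left by rounding, 0.005 to either side on the deposited scale, and count as beyond rounding from 0.02. The largest SE is the root of 2 / ln 2 times the gap between the log2 of the mean and the mean log2 level, rounding added, an approximation to second order. Counting error takes normalized counts as reads. Genes had a mean of at least 10. Transcript lengths came from GENCODE on GRCm38 by Ensembl identifier (99.7% of protein-coding genes). Steps were checked on simulated data, with Python 3.11.15, numpy 2.4.6, pandas 2.3.3 and matplotlib 3.10.9. The genes and lists were chosen with earlier results of these data known. The fold of 1.1, the rounding rule, the largest SE, the longest transcript as length and the gene family groups were set after values had been seen. All 10 genes are named, and others by the highest and lowest level, with exceptions stated. A further gene of the pathway list is not reported here and enters no count of that list.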

Additional observations from a re-analysis of the deposited data

How the results depend on the processing

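The count of genes 1.1-fold or more from WT was 5232 on chow and 4440 on the HFD. It was 2587 and 2111 with a mean of at least 100, and 1943 and 1463 at 1.2-fold, an alternative added after seeing the data. Without a filter (5236 and 4443) or with a pseudocount of 1 CPM (4309 and 3527) it stayed within 1.5 times. Of the 10 pathway genes, 2 on chow and 3 on the HFD were past 1.1-fold, also with the pseudocount, and 0 and 0 were past 1.2-fold. The pseudocount moved none of their 20 differences by more than the rounding. Per kilobase, 7 of 10 genes changed rank on each diet against log2 CPM, with either the longest or the median transcript length, both lengths chosen after values had been seen. Lengths differ widely for *Itpr1*, 9870 bases for the longest and 807 for the median transcript, which moves its rank from 8 to 1 on chow and from 9 to 2 on the HFD. Leaving out replicates and other normalizations of counts were not run, since both need values of single mice. No paired analysis was possible because the deposited columns are group means and carry no replicate number.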
